A study of Mus musculus with 8 samples.

Results

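Cells carrying the TRAV11–TRAJ18 T cell receptor α chain were examined in the mouse thymus. A cell, here a barcode of the single-cell receptor assay, was a member when its main TRA chain used TRAV11, TRAV11D or TRAV11N joined to TRAJ18 and the pipeline had not marked it as a multiplet. There were 3587 such cells in 7 thymuses, out of 45148 thymic cells with a TRA chain and no multiplet mark, 109216 thymic barcodes in all, and 253531 barcodes in the whole series. The rule used the genes of the main TRA chain and the multiplet mark, so the TRB genes and TRB transcripts were free to differ. It did not read second TRA chains, so 111 cells with TRAV11–TRAJ18 as their second TRA chain count as other cells. Second TRA chains and TRA transcripts were thus not wholly free of the rule.

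The study profiled TRA and TRB chains of CD8+ T cells from thymus, spleen and tumor in 8 multiplexed sublibraries. The mice were adult Pdcd1 fl/fl and Pdcd1 cKO animals, the latter carrying E8I CD8-Cre, which deletes Pdcd1, the gene of PD-1, in CD8+ cells only; some bore B16-OVA or B16-F10 melanoma and others were taken at baseline. Labels name the sublibraries and not the animal's genotype or tumor, so the 7 mice (mouse-164B and mouse-164C, mouse-155A and mouse-155C, and mouse-160A with mouse-160B and mouse-160C) were treated as 1 set and no genotype was compared. Thymic cells had been isolated with a kit for CD8a+ T cells, and the tables hold receptor chains only, so CD8, CD4 and CD1d reactivity could not be read from them.

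Invariant natural killer T (iNKT) cells are T cells that see lipids presented by CD1d rather than peptides on classical MHC molecules. In the mouse they are defined by 1 nearly fixed α chain, made by joining TRAV11 (Vα14) to TRAJ18 (Jα18), which pairs with a small choice of β chains: the TRBV13 family (Vβ8), TRBV29 (Vβ7) and TRBV1 (Vβ2). They arise in the thymus from double-positive thymocytes, are selected by other thymocytes, and in mice are mostly CD4+ or negative for both coreceptors.

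The α chain itself is shown first because its CDR3, the loop made at the junction, is what makes the receptor invariant. In the GRCm39 genome TRAV11 lies on chromosome 14 from 53756760 to 53757316 and TRAJ18 from 54438234 to 54438299, both on the plus strand. The last exon of TRAV11 ends with 13 bases that belong to the CDR3, at chr14:53757304-53757316. The first 35 bases of the TRAJ18 exon, at chr14:54438234-54438268, reach to the end of the CDR3. Read 5′ to 3′ from the reference genome they are:
TRAV11 end: tgtgtggtgggcg
TRAJ18 start: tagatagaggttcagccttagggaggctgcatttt

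CDR3 nucleotide sequences were found for 3131 of the 3587 members (87.3%). Cover was complete in 5 thymuses, 92.3% in mouse-160B and 38.95% in mouse-164B. The 5 most frequent versions, with the fourth codon in capitals, were:
Version 1: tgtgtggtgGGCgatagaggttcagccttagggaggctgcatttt
Version 2: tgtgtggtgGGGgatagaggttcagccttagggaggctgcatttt
Version 3: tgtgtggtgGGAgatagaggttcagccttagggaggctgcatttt
Version 4: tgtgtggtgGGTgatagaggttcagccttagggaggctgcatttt
Version 5: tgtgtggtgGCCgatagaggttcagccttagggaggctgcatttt

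Versions 1 to 4 encode the same 15 residues and differ only in the last base of a glycine codon, and version 5 has alanine there. Together versions 1 to 4 made up 2895 of the 3131 cells (92.5%). Version 1, in 1179 cells (37.7%, 95% exact binomial interval 36.0 to 39.4), can be read wholly from the germline ends, 13 bases from TRAV11 and 33 from TRAJ18 with 1 base shared. Version 3, in 518 cells (16.5%), can also be read without an added base, from 11 bases of TRAV11 and 34 of TRAJ18. Version 2 (801 cells, 25.6%) and version 4 (397 cells, 12.7%) each leave 1 base that neither end supplies. Version 5 was rarer, with 62 cells (1.98%), and leaves 2 bases. Over the 3131 cells with a sequence, 54.7% had no base outside the germline ends, 38.6% had 1 and 6.64% had 2 or more, the last group being spread over 51 of the 59 distinct sequences. Bases were matched inward from the 2 outer ends of the CDR3, so a changed base inside TRAJ18 or a shortened sequence also counts as bases outside. A sequence with 1 such change was scored with 23, and a sequence of 39 bases with 24. Not all of the 51 sequences are therefore junctions with added bases. Intervals cover counting error only.

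All 7 thymuses held versions 1 to 5, so no animal's members came from 1 nucleotide junction. Version 1 was the most frequent in each, at a lowest share of 33.5% in mouse-160A, a median of 37.8% and a highest of 45.6% in mouse-155A. Version 2 ranged from 20.6% to 30.6% and version 3 from 12.2% to 22.2%, with the highest version 3 share in the thymus that had the lowest version 1 share. Version 4 was the steadiest, at 10.5% to 13.3%.

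**Figure D1:**
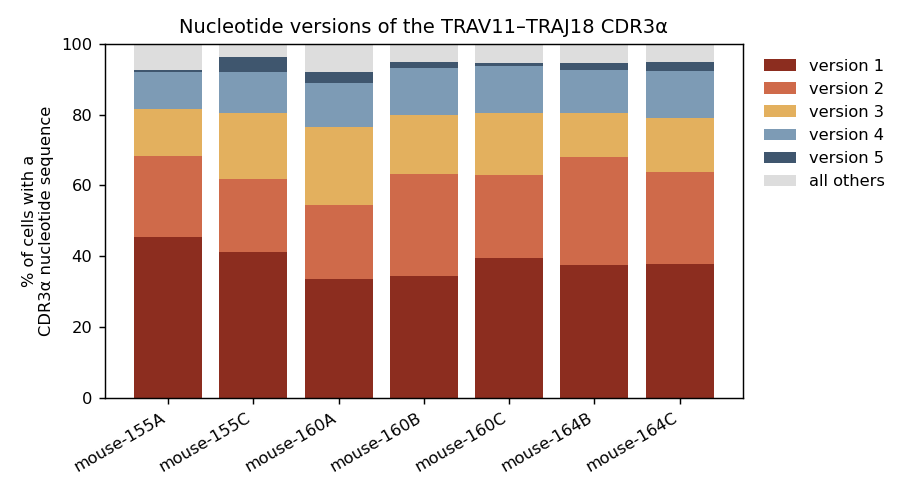
Stacked bars give, for each of the 7 thymuses, the percentage of TRAV11–TRAJ18 cells with a CDR3α nucleotide sequence that carried versions 1 to 5 or any other sequence. Version 1 was the largest part in every animal (33.5% to 45.6%), and versions 1 to 4 together fill most of each bar.

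At the protein level 28 CDR3α sequences were found, of which the glycine form made up 3373 of 3587 cells (94.0%, 93.2 to 94.8) and between 90.2% and 94.8% in every thymus. Alanine at the same place occurred in 100 cells (2.79%) and valine in 69 (1.92%), each in all 7 animals. The length was 15 residues in 3575 cells. TRAV11 was the called V gene in 3585 cells, TRAV11N in 2, and TRAV11D in 0 of 3587, which allows a share of up to 0.103%. These values follow in part from the rule, which fixed both genes, and carry no test.

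Members were a sizable class of the thymic tables. Their share of cells with a TRA chain was lowest in mouse-164B, at 5.79% (5.36 to 6.25), had a median of 7.59%, and was highest in mouse-160B, at 10.9% (10.3 to 11.6). The mean over animals was 7.99% ± 1.78 (SD, n = 7). Intervals of mouse-164B and mouse-160B lie far apart, whereas those of mouse-155A, mouse-155C and mouse-164C overlap. Over the wells that received the same thymus, the share ranged from 5.66% to 5.97% in the 4 wells of mouse-164B and from 5.21% to 8.60% in the 3 of mouse-155C, which had the fewest members. Among the 8 sublibraries, which hold cells of every table, the share ranged from 7.28% to 8.89%. No full barcode occurred in more than 1 table, but 93.1% of members and 94.96% of other cells shared all but the first barcode part with a cell of another table.

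**Figure D2:**
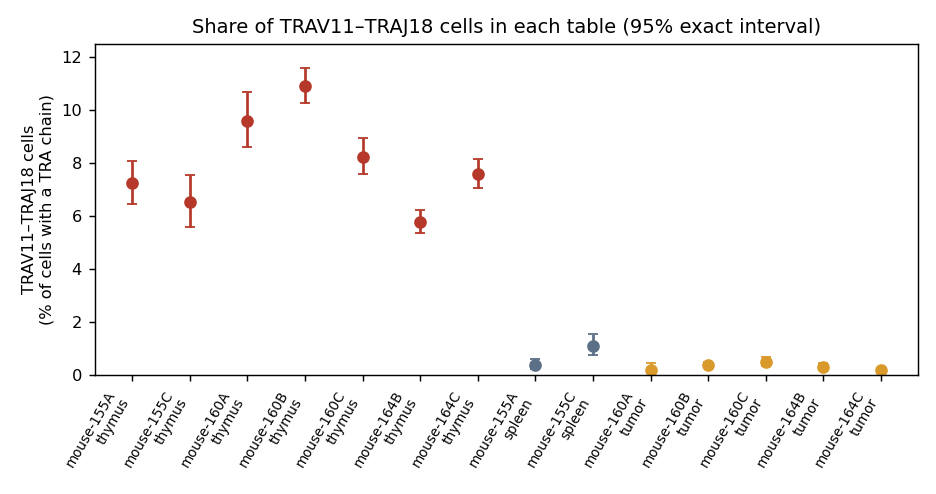
Points give TRAV11–TRAJ18 cells as a percentage of cells with a TRA chain in each of the 14 tables, with 95% exact binomial intervals. The 7 thymus tables lie between 5.79% and 10.9%, and the spleen and tumor tables between 0.200% and 1.13%.

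In the spleen and tumor tables, shown side by side without a test, the same chain was found in 228 cells, at 0.200% to 1.13% of cells with a TRA chain. The paper used the same isolation kit for spleen and thymus. Tumor cells were digested and isolated with other beads, so for tumor the tissue and the isolation differ together. A TRB chain was seen in 59 of these 228 (25.9%, 20.3 to 32.1) against 2426 of the 3587 thymic members (67.6%, 66.1 to 69.2). TRBV13-2 was seen in 21 of the 59 (35.6%, 23.6 to 49.1). Other cells of the same spleen and tumor tables had a TRB chain in 46.0% to 64.8%. A single TRA transcript was behind 75.6% to 93.5% of the TRAV11–TRAJ18 calls in these tables, against 45.0% to 70.5% of other cells. Most of the 228 calls thus rest on the lowest possible count, and their share may not describe the same class of cell.

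The cell type label was checked on the TRB chain, which the rule did not use. TRBV13-2, TRBV29 and TRBV1, the β chain markers of iNKT cells, were together carried by 1660 of the 2426 members with a TRB chain and by 63.2% to 73.6% of them in each thymus. Among other cells with a TRB chain the same genes reached 20.9% to 23.0%. With TRBV13-1 and TRBV13-3 added, the remaining Vβ8 genes, 86.2% to 92.3% of members and 34.8% to 37.7% of other cells were covered, and the ranges did not overlap. TRAV1–TRAJ33, the chain of MAIT cells, occurred in 1 of the 45148 cells. The libraries were made for TRA and TRB alone, so cells marked by γδ or immunoglobulin chains could not be seen.

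TRBV usage differed between members and the other cells of the same thymus for nearly every gene. Shares were compared within each animal with an exact two-sided sign-flip permutation test over the 7 paired differences, whose smallest possible p is 0.0156, and adjusted by Benjamini-Hochberg over 22 TRBV genes. Of the 22, 4 genes passed as higher in members (18.2%) and 17 as lower (77.3%), at an adjusted p under 0.05. Shares sum to a whole, so a large rise in 1 gene lowers the rest. Animals are the replicates in these tests.

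TRBV13-2 (Vβ8.2; chr6:41098330-41098766) was the leading β chain. It was carried by 42.9% of members in mouse-160A, 46.2% at the median and 49.9% in mouse-164B, against a lowest 9.14%, a median of 9.74% and a highest 10.5% in other cells. All 7 members' shares lay far above all 7 of the other cells, with a mean of 46.3% ± 3.00 against 9.73% ± 0.399 (SD, n = 7), a 4.76-fold difference (exact permutation p = 0.0156, adjusted p = 0.0202).

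TRBV29 (Vβ7; chr6:41248328-41248815) reached 9.13%, 11.8% and 18.6% of members at the lowest, median and highest thymus, against 5.91%, 6.56% and 7.95% of other cells. Its highest member share was in mouse-155C, which had the fewest members. The means were 12.4% ± 3.19 and 6.76% ± 0.763 (SD, n = 7; exact permutation p = 0.0156, adjusted p = 0.0202). TRBV1 (Vβ2; chr6:40868163-40868819) reached 7.53%, 9.54% and 13.7% of members, against 4.84%, 5.15% and 5.78% of other cells. Its means were 10.1% ± 2.61 and 5.19% ± 0.349 (SD, n = 7; exact permutation p = 0.0156, adjusted p = 0.0202). Both genes were higher in members in 7 of 7 thymuses and neither range overlapped.

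The Vβ8 family did not move as a block. TRBV13-1 (Vβ8.3; chr6:41092941-41093402) was higher in members in 7 of 7 thymuses, at 13.6% ± 2.51 against 7.58% ± 0.499 (SD, n = 7; exact permutation p = 0.0156, adjusted p = 0.0202). TRBV13-3 (Vβ8.1; chr6:41107081-41107519) was lower in 6 of 7, at 5.95% ± 0.919 against 6.87% ± 0.461 (SD, n = 7; exact permutation p = 0.0469, adjusted p = 0.0491), with overlapping ranges. This last call is at the edge of the threshold: it was lost on a log2 scale of the shares (adjusted p = 0.120) and with most single animals or sublibraries left out, at a difference of -1.35 to -0.591 percentage points.

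Every other TRBV gene was at most a small part of the members. Among genes that reached a median of 1% in other cells, TRBV20, TRBV2 and TRBV26 had the lowest ratios of member to other share. TRBV2 fell from 3.58% ± 0.389 of other cells to 0.268% ± 0.210 of members (SD, n = 7), a median ratio of 0.0690. TRBV26 fell from 3.19% to 0.603% and TRBV20 from 1.73% to 0.199%, each in 7 of 7 thymuses (exact permutation p = 0.0156, adjusted p = 0.0202). Among genes that reached this 1% median, TRBV31 had the next highest ratio after the marker and Vβ8 genes. It still fell from 2.94% to 1.19% in 7 of 7. TRBV30 was the 1 gene that did not pass (0.179% against 0.319%, adjusted p = 0.172).

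**Figure D3:**
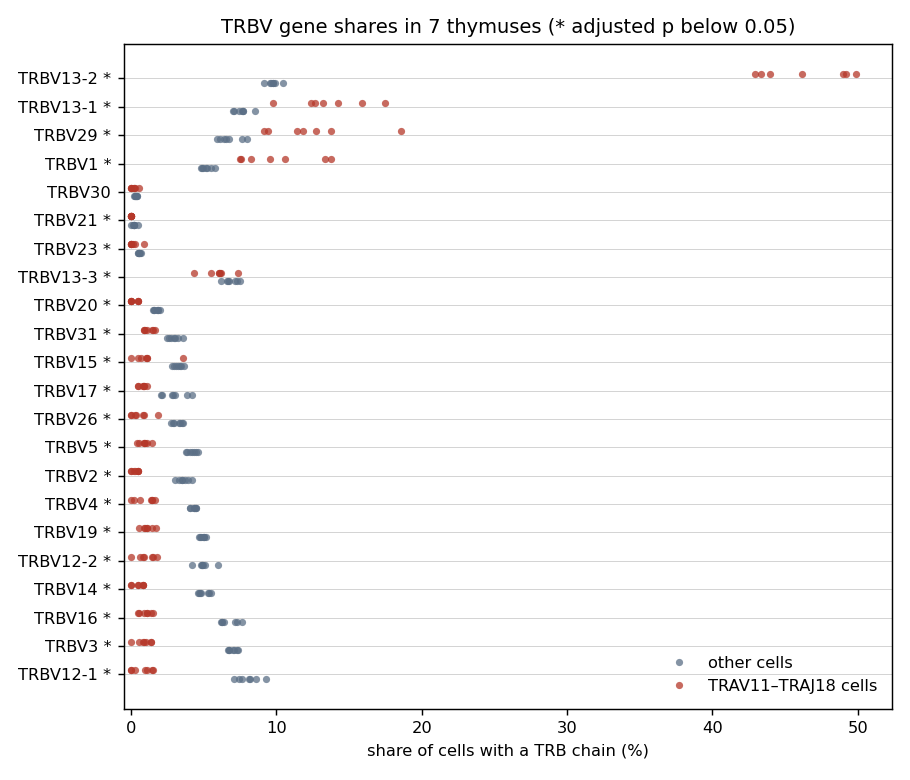
Each point is 1 thymus, red for TRAV11–TRAJ18 cells and grey for other cells, and the horizontal axis is the percentage of cells with a TRB chain that used the gene. TRBV13-2 stands apart at 42.9% to 49.9% of members, TRBV13-1, TRBV29 and TRBV1 lie to the right of the other cells without overlap, and the remaining genes except TRBV13-3 lie near 0 to 4% in members.

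To see whether 1 segment alone went with this β chain use, cells with TRAV11 and another TRAJ, or TRAJ18 and another TRAV, were set beside the members. TRBV13-2 was carried by 39 of the 405 TRAJ18 cells with another TRAV and a TRB chain (9.63%, 6.94 to 12.9), close to the other cells and below 47.2% of members. The difference was in the same direction in 7 of 7 thymuses, with a mean of 37.7 percentage points (exact permutation p = 0.0156, adjusted over 8 such tests p = 0.0625). Against the same cells TRBV13-1 was higher in members in 7 of 7 (adjusted p = 0.0625, exact permutation). TRBV29 was higher in 6 of 7 (adjusted p = 0.125) and TRBV1 in 5 of 7 (adjusted p = 0.354), so these 2 genes were less clearly apart. TRAV11 cells with another TRAJ were few, 79 with a TRB chain, of which 14 had TRBV13-2 (17.7%, 10.04 to 27.9). Only 4 thymuses had at least 10 such cells, members were higher in 4 of 4, and the smallest p that 4 animals allow is 0.125. In these thymuses TRBV13-1 was higher in members in 4 of 4, and TRBV29 and TRBV1 in 3 of 4 each.

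TRBJ usage differed less. Of 12 TRBJ genes, 3 passed as higher in members (25.0%) and 2 as lower (16.7%). TRBJ1-2 was used by 11.4% ± 2.65 of members and 7.71% ± 0.480 of other cells, with a lowest member share of 8.49% in mouse-160A and a highest of 15.04% in mouse-155C. TRBJ1-5 was used by 5.32% ± 1.48 against 2.76% ± 0.406, and its ranges, like those of TRBJ1-2, did not overlap. TRBJ2-4 was used by 9.38% ± 1.41 against 7.28% ± 0.424, with overlap. TRBJ1-4 fell to 3.42% ± 1.12 from 7.00% ± 0.346 without overlap, and TRBJ1-6 to 1.41% ± 0.735 from 2.62% ± 0.182 (SD, n = 7). Each of these kept its direction in 7 of 7 thymuses (exact permutation p = 0.0156, adjusted p = 0.0375). TRBJ2-7, the most used J gene, was at 18.9% in both classes (adjusted p = 0.969). No TRBJ gene passed with any animal left out, where the smallest p is 0.0312, with sublibrary 3 or sublibrary 4 left out, or with cells of at least 2 TRA transcripts, although in each case 3 higher and 2 or 3 lower genes had an unadjusted p under 0.05.

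**Figure D4:**
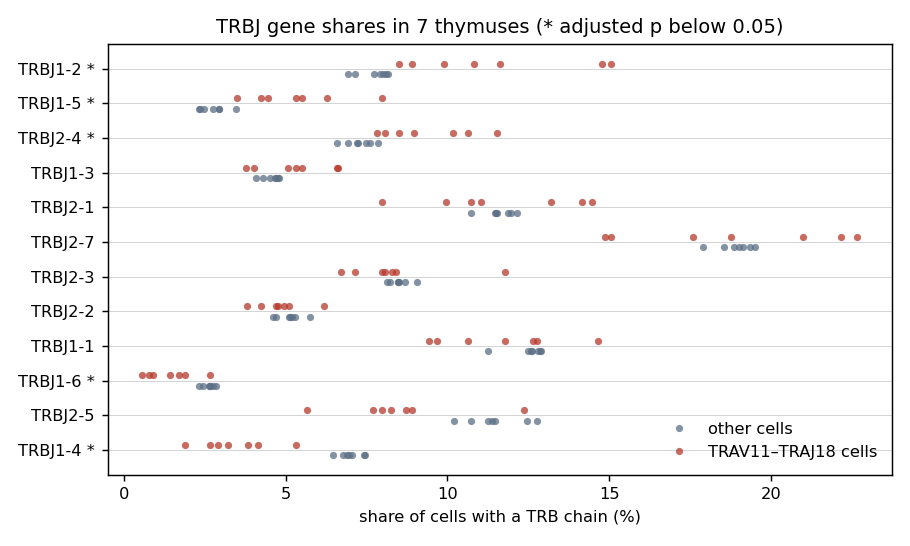
Each point is 1 thymus, red for TRAV11–TRAJ18 cells and grey for other cells, with the percentage of cells with a TRB chain that used each TRBJ gene. Members lie to the right for TRBJ1-2 and TRBJ1-5 and to the left for TRBJ1-4 without overlap, while TRBJ2-7 centres on 18.9% in both.

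The β chain CDR3, which unlike the α chain varies from cell to cell, was slightly longer in members. Its mean length was 14.13 ± 0.14 residues against 13.93 ± 0.03 (SD, n = 7), longer in 6 of 7 thymuses, with mouse-155C the exception (exact permutation p = 0.0312, adjusted over 10 chain measures p = 0.0446). Within 1 V gene the difference was larger for TRBV29, at 14.24 ± 0.22 against 13.58 ± 0.12 residues, and for TRBV1, at 14.79 ± 0.23 against 14.33 ± 0.07, each longer in 7 of 7 (SD, n = 7; exact permutation p = 0.0156, adjusted p = 0.0260). Within TRBV13-2 it was 14.18 ± 0.19 against 13.99 ± 0.07 residues (adjusted p = 0.0977, exact permutation), longer in 6 of 7. The overall call was lost without sublibrary 2 (0.182 residues) and without sublibrary 6 (0.164 residues). With any animal but mouse-155C left out, 6 animals remained and neither the length calls nor those on transcripts, TRB chain, second TRA chain and multiplets given next passed (adjusted p of 0.0521 or more), with directions kept.

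Members carried fewer TRB transcripts. Counted over cells with a TRB chain, the mean was lowest at 1.87 transcripts of the main chain in mouse-155A, 2.42 at the median and highest at 3.01 in mouse-164C, against 3.39, 3.97 and 4.24 in other cells. The lowest of the other cells exceeded the highest of the members, with means of 2.52 ± 0.391 and 3.90 ± 0.361 (SD, n = 7; exact permutation p = 0.0156, adjusted p = 0.0260). Among TRBV13-2 cells alone the means were 2.09 ± 0.228 and 4.17 ± 0.273, lower in members in 7 of 7. Among cells with a TRBV gene outside the Vβ8, Vβ7 and Vβ2 genes the order was different, with 4.64 ± 1.47 in members and 3.84 ± 0.380 in other cells and members lower in 3 of 7. The TRA chain showed no such gap, at 2.22 ± 0.228 transcripts in members and 2.14 ± 0.318 in other cells (adjusted p = 0.174, exact permutation). Its distribution did differ in shape: 33.1% to 56.4% of members had a single TRA transcript against 49.8% to 73.2% of other cells, and among cells with at least 2 the mean was lower in members by 0.59 transcripts (adjusted p = 0.0260).

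A TRB chain was found in 67.3% ± 2.74 of members and 61.5% ± 8.64 of other cells, higher in 7 of 7 thymuses (SD, n = 7; exact permutation p = 0.0156, adjusted p = 0.0260). The gap came largely from mouse-155C (68.5% against 47.8%) and mouse-155A (61.9% against 50.5%), and without both its mean fell from 5.80 to 1.71 percentage points. These are the 2 mice whose second table is spleen, while the other 5 have a tumor table. The paper paired thymus with spleen in mice without tumors. The animal, the tumor and anything else that differed between these sets therefore cannot be told apart. Without sublibrary 2 the mean gap was 5.13 percentage points and did not pass (adjusted p = 0.112). Among cells with at least 2 TRA transcripts the direction turned, members being lower by a mean of 10.1 percentage points (difference -10.1, adjusted p = 0.0347). In other cells 8.44% of TRA chains had a CDR3 without the closing phenylalanine or tryptophan, with 1.09 transcripts on average, against 0.223% in members; with such chains left out the TRB difference was 5.13 percentage points and no longer passed (adjusted p = 0.0670).

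Second α chains were rarer in members. A second TRA chain was recorded in 6.69% ± 2.09 of members and 14.1% ± 3.22 of other cells, lower in 7 of 7 (SD, n = 7; exact permutation p = 0.0156, adjusted p = 0.0260). Of the 259 members with one, 41 (15.8%) had TRAV11–TRAJ18 again and 61 (23.6%) a chain without the closing residue, leaving 163 of 3587 members (4.54%) with a second, different and complete TRA chain. With both kinds of second chain left uncounted in other cells too, members were lower by a mean of 5.30 percentage points (difference -5.30, adjusted p = 0.0260). A second TRB chain was recorded in 16.8% ± 1.74 of members with a TRB chain and 16.3% ± 2.48 of other cells (adjusted p = 0.312). The multiplet mark was part of the rule, so its share was computed with marked cells kept. It was 6.27% ± 3.29 of TRAV11–TRAJ18 cells against 8.25% ± 3.78 of the rest, lower in 7 of 7 (adjusted p = 0.0260, exact permutation). No cell without a second chain carried the mark, so this value is not separate from those on second chains. In the opposite direction, 111 of the 41561 other cells (0.267%) held TRAV11–TRAJ18 as their second TRA chain, and 43 of the 97 of these with a TRB chain (44.3%) used a marker TRBV gene. The rule places these 111 cells, each with a second TRA chain, among the other cells. Part of the difference in second TRA chains therefore follows from the rule.

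The members whose main TRB chain used none of the Vβ8, Vβ7 and Vβ2 genes differed from the rest in their second chains; this split was made after the values were seen and carries no test. They were 288 of the 2426 members with a TRB chain (11.9%). A second TRB chain was recorded in 139 of the 288 (48.3%, 42.4 to 54.2), against 284 of the 2138 with those 5 genes (13.3%, 11.9 to 14.8) and 17.3% of other cells. Of these 139 second chains, 120 used 1 of the 5 genes (86.3%, 79.5 to 91.6), against 166 of the 284 second chains of members with the 5 genes (58.5%, 52.5 to 64.2) and 39.04% of those of other cells. Members with none of the 5 genes in either chain were thus 168 of 2426 (6.92%, 5.95 to 8.01).

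The same 288 cells had more TRB transcripts on average, with ranges that overlapped those of both other classes. Their main TRB chain had 4.64 ± 1.47 transcripts on average, from 2.50 in mouse-155A to 6.37 in mouse-160B, against 2.23 ± 0.289 in members with the 5 genes and 3.90 ± 0.361 in other cells (SD, n = 7). Members with the 5 genes reached 2.52, and other cells ranged from 3.39 to 4.24. Mouse-155A had only 14 cells of this class. The class was set by its main TRB chain, so the count of that chain is not independent of the split. The TRA chain did not separate the classes, with 2.34 ± 0.468 and 2.39 ± 0.224 transcripts. A second TRA chain was recorded in 19.4% of the 288 (15.04 to 24.5), against 7.25% (6.19 to 8.43) with the 5 genes and 20.7% of other cells with a TRB chain.

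**Figure D5:**
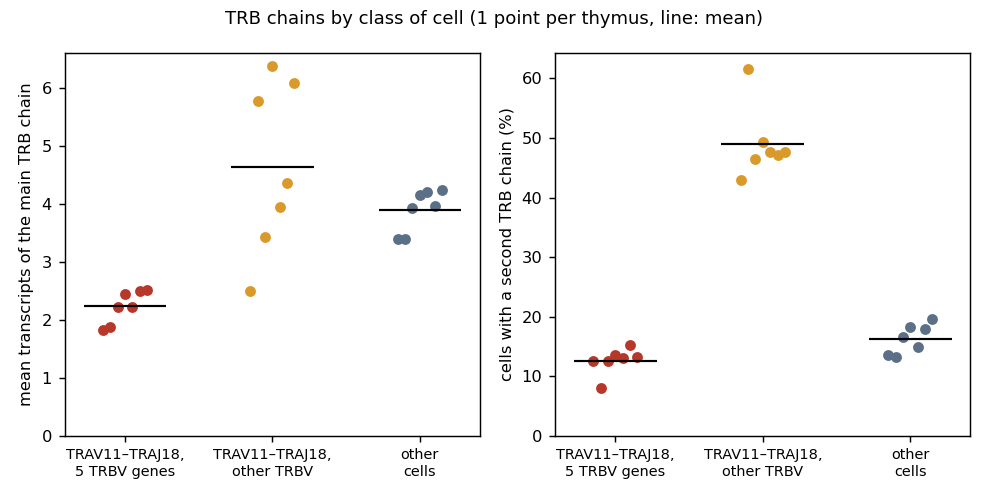
Each point is 1 thymus and each line the mean of 7, for TRAV11–TRAJ18 cells whose main TRB chain used TRBV13-1, TRBV13-2, TRBV13-3, TRBV29 or TRBV1, for those with another TRBV gene, and for other cells. The left panel gives mean transcripts of the main TRB chain (means 2.23, 4.64 and 3.90) and the right panel the percentage with a second TRB chain, 42.9% to 61.5% in the middle class against at most 19.6% elsewhere.

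In counts pooled over the 7 thymuses, the mix of TRBV genes differed with the residue at the fourth place of the CDR3α. This was not tested, and cells are not replicates, so residue and animal are not separated here. Version 5, with alanine, was most frequent in mouse-155C (4.24%), which also had the highest TRBV29 share of members (18.6%). The leading valine sequence was most frequent in mouse-160A (2.53%), where TRBV29 was at 12.7% of members. TRBV29 was carried by 234 of 2278 cells with glycine (10.3%, 9.06 to 11.6), 15 of 72 with alanine (20.8%, 12.2 to 32.0) and 14 of 47 with valine (29.8%, 17.3 to 44.9). TRBV13-1 ran the other way, with 14.4% of glycine cells (12.98 to 15.9), 4 of 72 alanine cells (5.56%, 1.53 to 13.6) and 0 of 47 valine cells (upper limit 7.55%). TRBV13-2 was carried by 47.5%, 47.2% and 44.7% of the glycine, alanine and valine cells. In the 29 cells with any other CDR3α, 8 had TRBV13-2 (27.6%, 12.7 to 47.2) and 11 had TRBV29 (37.9%, 20.7 to 57.7). Among versions 1 to 4, which encode the same protein, TRBV13-2 lay between 46.2% and 52.1% and TRBV29 between 8.24% and 10.8%, within overlapping intervals.

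The β chains of the members were almost all different. Taking the pair of CDR3 protein sequences as a clonotype, 2426 members with both chains fell into 2323 clonotypes. Of these members 95.1% were alone in their table, against 97.9% of other cells. Most members have the same CDR3α, so a match within a table needs only an equal CDR3β, where other cells must match in both chains. The 2 shares are thus not a like measure of expansion. Only 45 clonotypes had 2 or more cells in a table. The largest was in mouse-164B, with 9 of 447 cells (2.01%, 0.925 to 3.79) in 6 sublibraries, using TRBV13-2 and TRBJ1-1. In mouse-160C a TRBV13-2–TRBJ1-2 clonotype had 7 of 372 cells (1.88%), and in mouse-160A a TRBV13-1–TRBJ2-3 clonotype had 7 of 212 (3.30%). The leading clonotypes of the other thymuses had 2 or 3 cells. The CDR3β of these 3 clonotypes is shown, since each had 1 nucleotide sequence in all cells where it was given:
mouse-164B, TRBV13-2–TRBJ1-1: tgtgccagcggtgatgcggaagtcttcttt
mouse-160C, TRBV13-2–TRBJ1-2: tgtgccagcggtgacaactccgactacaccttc
mouse-160A, TRBV13-1–TRBJ2-3: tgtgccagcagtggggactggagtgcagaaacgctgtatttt

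Sharing between animals was limited to pairs. There were 30 clonotypes in 2 animals (1.29%) and 0 in 3 or more, all 30 with the glycine form of the α chain and 21 with TRBV13-2. Among other cells 35 of 26221 clonotypes were in 2 or more animals (0.133%), but a common α chain makes a match of both chains easier for members. On the β chain alone, the median chance that 2 cells from 2 animals had the same CDR3β was 14.77 per 1000000 cell pairs in members and 14.01 in other cells over 21 pairs of animals, which share animals; 7 of the 21 member pairs had no match. Members use TRBV13-2 more often, and within TRBV13-2 alone the medians were 29.1 and 46.9 per 1000000 cell pairs, members being higher in 9 of the 21 pairs. Of 26 shared clonotypes with TRB nucleotide sequences from both animals, 23 had more than 1, and none of the 30 had cells with the same remaining barcode parts. The pairs of sequences of 3 shared clonotypes show this, with the base that differs in capitals:
TRBV13-1–TRBJ2-4, mouse-164C: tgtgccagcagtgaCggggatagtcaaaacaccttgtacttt
TRBV13-1–TRBJ2-4, mouse-155C: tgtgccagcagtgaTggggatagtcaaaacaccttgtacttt
TRBV13-2–TRBJ1-2, mouse-164C: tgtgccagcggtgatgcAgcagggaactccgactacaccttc
TRBV13-2–TRBJ1-2, mouse-164B: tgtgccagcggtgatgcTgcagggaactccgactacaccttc
TRBV13-2–TRBJ1-1, mouse-160C: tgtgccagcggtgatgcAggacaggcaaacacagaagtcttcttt
TRBV13-2–TRBJ1-1, mouse-164B: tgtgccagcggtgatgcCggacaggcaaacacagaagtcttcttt

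Between sublibraries the observed pairing and V gene use of members varied, which was not tested. Each sublibrary held 404 to 492 members. No interval and no value of other cells stands beside these ranges, so they are not read as a trait of the members. A TRB chain was found in 68.8% to 73.1% of members in sublibraries 1 to 4 and in 63.8% to 65.0% in sublibraries 5 to 8. TRBV13-2 ranged from 41.4% in sublibrary 6 to 53.3% in sublibrary 1. With each sublibrary left out in turn, the TRBV13-2 difference stayed within the 35.6 to 37.3 percentage points found over all single omissions, animals included.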

How the data were processed

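TRA and TRB chains of CD8+ T cells were sequenced by the authors with the Parse Evercode TCR kit and assembled with the Parse TCR pipeline, version not stated in the methods; the submitters' processing notes list GRCm39. The deposited tables give, per barcode, the main and second chains with their transcript counts and a multiplet mark, 1 table per mouse and tissue, and hold barcodes of 8 sublibraries. Deposited clonotype frequencies were not used. Thymus tables held 7850 to 24531 barcodes, of which 2523 to 10864 had a TRA chain and no multiplet mark.

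Shares were computed per animal and compared by an exact two-sided sign-flip permutation test in Python 3 with Benjamini-Hochberg adjustment, over genes with at least 20 cells. The test was checked on simulated data. Germline ends and positions came from GRCm39 with GENCODE M39. Named were TRBV13-2, TRBV29 and TRBV1, the 3 TRBV genes of highest and of lowest ratio, all TRBJ genes past the test, the 5 leading CDR3α sequences and the leading clonotypes. Members and lists were chosen with earlier results of these data known. Alternatives were other transcript minimums, multiplets, second chains, counting combinations once, shared barcode parts, and omitted animals or sublibraries.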

Additional observations from a re-analysis of the deposited data

Results flagged for a closer look

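Among 54 sets of 7 animal values, 2 held a value farther from the rest than Dixon's 95% critical gap, and chance alone gives about 1 in 20. Other cells of mouse-155A had a mean CDR3β length of 13.99 residues, against 13.89 to 13.93 in the other animals. Members of mouse-160B with TRBV29 had a mean CDR3β length of 13.81 residues, against 14.19 to 14.48.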

How the results depend on the processing

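The TRBV13-2 difference kept its direction and passed the test under every alternative run, between 35.6 and 37.3 percentage points with 1 animal or 1 sublibrary left out. TRBV29 and TRBV1 did so under all but one: with cells that shared barcode parts with another table left out, 248 of the 3587 members remained and the differences were 8.20 and 5.11 percentage points without passing. In that small set 1 TRBV gene passed as higher and 10 as lower, and 0 TRBJ genes passed in either direction (0 higher and 1 lower at an unadjusted sign-flip p under 0.05). The TRBJ1-2 difference was then -0.887 percentage points, the CDR3β length difference 0.172 residues over all genes, 0.352 in TRBV29 and 0.503 in TRBV1, the share with a TRB chain -3.63 points, mean TRA transcripts -0.0534, mean TRB transcripts -0.987, the second TRA chain -10.5 points and the multiplet share -3.19 points, none passing, and the median share of members was 9.38%.

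With at least 2 TRA transcripts, 0 TRBJ genes passed in either direction (3 higher and 3 lower unadjusted), the difference was -10.1 points in the share with a TRB chain, -0.585 in mean TRA transcripts, -0.443 points in the second TRB chain and 0.318 residues in TRBV13-2 CDR3β length, which then passed, and the median share of members was 11.2%. With at least 2 transcripts of both chains, 0 TRBJ genes passed (2 higher and 2 lower unadjusted), mean TRA transcripts differed by -0.635, and the TRBV1 length (0.322 residues) and the multiplet share (-1.88 points) no longer passed. With multiplets kept, the CDR3β length (0.177 residues) and the share with a TRB chain (5.14 points) did not pass and the second TRB chain differed by -0.143 points. Without cells that had a second chain, mean TRA transcripts passed (0.237), and the multiplet share differed by 0, as no such cell is a marked multiplet. Counting each chain combination once gave 1 TRBJ gene lower, 0.249 residues in TRBV13-2 length, which passed, a median member share of 5.71%, and 30.8 points in the share with a TRB chain, as members without a TRB chain then collapse by construction; transcripts, second chains and multiplets were not run there. Members limited to the most frequent CDR3α protein, or to its length, and log2 shares also gave 1 TRBJ gene lower. The match probability of the members' CDR3β fell to a median of 0 with nucleotide sequences and with at least 2 TRB transcripts. The alternatives chosen after seeing the data gave 5.13 points in the share with a TRB chain and -0.0162 in TRA transcripts with incomplete CDR3α left out, and 1.71 points in the former without mouse-155A and mouse-155C, where 5 animals cannot reach the threshold.

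With 1 animal or 1 sublibrary left out, differences ranged from 0.158 to 0.240 residues in CDR3β length, 0.150 to 0.235 in TRBV13-2, 0.557 to 0.728 in TRBV29 and 0.392 to 0.543 in TRBV1; from 3.32 to 6.75 points in the share with a TRB chain, -7.97 to -7.00 in the second TRA chain, 0.00808 to 0.935 in the second TRB chain and -2.67 to -1.65 in the multiplet share; and from -1.43 to -1.31 in mean TRB transcripts. TRBV counts were 4 higher and 13 to 17 lower, and TRBJ counts 0 to 3 higher and 0 to 2 lower. Median counts per table were 1 to 3 transcripts per chain, so a missing second chain or TRB chain is not evidence of its absence.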
